A study of Mus musculus with 2 samples.

Results

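Pax8, Bdnf, Cpa1 and Tle4 are 4 of the 27998 genes counted in single-cell RNA libraries of mouse pharyngeal mesoderm and heart at E9.5. They were selected on measured values, namely their higher level in multilineage primed progenitors (MLPs) of embryos with conditional loss of Tbx1, so their difference in those cells is given as a description and not as a test. The data came from 2 droplet-based 3′ RNA libraries of Swiss Webster embryos, 1 per group. Ctrl embryos carried Mesp1Cre, which recombines in the early mesoderm, with a Rosa26-GFPflox/+ reporter. The cKO embryos carried the same Cre and reporter together with Tbx1flox/flox alleles, and in both groups the cells loaded were GFP-positive and DAPI-negative after sorting. According to the study's methods a pair of embryos was pooled for each such library, so embryos are not separate replicates here and no p-value could be given.

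Tbx1, a T-box transcription factor gene of the pharyngeal mesoderm, is the gene targeted in the cKO. In the cells assigned to the MLPs it was at 50.1 CPM (46.9 to 53.5) in the library labelled Ctrl, where CPM is the summed count of unique molecular identifiers (UMIs) of a gene per 1000000 UMIs. The library labelled cKO had 109 CPM (105 to 113), and the log2 ratio of cKO over Ctrl was 1.12 (1.01 to 1.23). In branchiomeric muscle progenitor-like (BrM-like) cells, where Ctrl had its highest level, Tbx1 was at 119.5 CPM in Ctrl and 94.97 CPM in cKO, at a log2 ratio of −0.33 (−0.45 to −0.21). Paraxial-like cells had the highest ratio among populations with at least 30 Tbx1 UMIs, 2.89, with 8.75 and 64.9 CPM. Of 16 populations 7 had an interval above 0 and 1, the BrM-like cells, below 0. The targeted gene was therefore not lower in most of the library labelled cKO, but 3′ counts do not separate intact from recombined transcripts and do not check the labels. Each direction below is between the libraries as labelled. After filters on genes, mitochondrial share and presumed doublets, 6591 and 8969 cells remained, with medians of 16855 and 14194 UMIs. Among kept cells, 11 cell barcodes were found in both libraries. Cells with Xist but no Y-linked UMI made up 51.1% and 56.6%, so both libraries held cells of both sexes in unlike shares. Results that rest on this are given by sex. With a pair of embryos per library, sex and embryo cannot be told apart in these splits.

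Pax8 encodes a paired-box transcription factor known from thyroid, kidney and inner ear development, and it forms a subfamily with Pax2 and Pax5. Bdnf encodes a neurotrophin that acts through the receptor TrkB, the product of Ntrk2, and through the receptor encoded by Ngfr. Cpa1 encodes the digestive enzyme carboxypeptidase A1 and marks early progenitors of the pancreas. Tle4 encodes a Groucho corepressor, which does not bind DNA itself but is recruited by transcription factors, among them Pax proteins of the Pax2, Pax5 and Pax8 subfamily. MLP is the study's name for Tbx1-expressing progenitors of the cardiopharyngeal mesoderm, the tissue that gives rise to the second heart field and to branchiomeric muscle.

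In GRCm38 the genes lie on 3 chromosomes. Pax8 (ENSMUSG00000026976) spans chr2:24420551-24475599 on the minus strand and Bdnf (ENSMUSG00000048482) spans chr2:109674700-109727043 on the plus strand. Cpa1 (ENSMUSG00000054446) spans chr6:30639218-30645361 on the plus strand and Tle4 (ENSMUSG00000024642) chr19:14448072-14598183 on the minus strand. RefSeq also places the long noncoding RNA genes Gm13415 over Pax8 and Gm31441 over Tle4, and neither was among the genes counted. RefSeq promoter windows of GRCm38.p6 gave 1 start for Pax8, 7 for Bdnf, 1 for Cpa1 and 2 for Tle4, and the 250 bases before each were read. The windows of Pax8 and Cpa1 are shown because these genes have a single start each and differ in base composition. They are written 5′ to 3′ on the strand of the gene, with CG pairs in capitals.

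Pax8 window: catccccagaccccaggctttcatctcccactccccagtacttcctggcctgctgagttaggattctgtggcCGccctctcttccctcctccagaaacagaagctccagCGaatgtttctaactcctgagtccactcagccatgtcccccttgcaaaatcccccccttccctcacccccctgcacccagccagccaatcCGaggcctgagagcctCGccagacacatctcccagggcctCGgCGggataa

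Cpa1 window: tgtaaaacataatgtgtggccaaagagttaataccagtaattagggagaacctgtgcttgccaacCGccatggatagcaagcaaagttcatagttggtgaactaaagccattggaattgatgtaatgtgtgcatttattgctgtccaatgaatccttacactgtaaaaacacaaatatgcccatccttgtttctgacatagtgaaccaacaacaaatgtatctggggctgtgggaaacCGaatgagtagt

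The Pax8 window, chr2:24475600-24475849, held 6 CG pairs, the median of all 32851 promoter windows of this length, and a GC content of 60.4%. The Cpa1 window, chr6:30638968-30639217, held 2 CG pairs at a GC content of 40.0%. The 2 Tle4 windows held 24 and 35 CG pairs and the Bdnf windows between 1 and 13. On both strands, the T-box letters GGTGTGA, the Pax core letters GCGTGAC and the TATA box letters TATAAA were found in 0 of the 11 windows. They were present in 3.33%, 1.78% and 12.4% of all windows, and the absence of these letters from 250 bases says nothing of binding elsewhere.

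Cells were clustered without the 4 genes or Tbx1. Of 27 clusters, 3 met the criteria for MLPs and are called MLP-like, with 1029 cells in the library labelled Ctrl and 1374 in the library labelled cKO, 15.6% and 15.3% of kept cells. Cluster 0 was led by Irx1, Irx2 and Prdm1 together with the cell cycle genes Nusap1 and Ube2c and held 9 of 12 MLP markers. Cluster 10, with Prdm1, Nrg1 and Fgf8 among its leading genes, held 11 of 12. Cluster 15, with Six2, Otor and Tbx1 among its leading genes, held 9 of 12, and Pax8, although not used for clustering, was its first gene by fold. Median depths of MLP-like cells were close, at 15740 UMIs in Ctrl and 15368 UMIs in cKO.

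Pax8 was nearly undetected in MLP-like cells labelled Ctrl and present in those labelled cKO. In the Ctrl library 6 Pax8 UMIs were counted, 0.336 CPM (0.123 to 0.731, exact Poisson 95% interval), against 373 UMIs or 16.4 CPM (14.7 to 18.1) in the cKO library. The log2 ratio was 5.61 (4.47 to 7.06). Poisson and binomial intervals here cover counting error only, not the variation between embryos.

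The other members were already expressed in Ctrl MLP-like cells. Bdnf was at 11.9 CPM (10.3 to 13.6) in Ctrl and 27.6 CPM (25.5 to 29.8) in cKO, and its log2 ratio was 1.22 (0.99 to 1.45). This ratio depended on which cells were called MLP-like and was 2.26 in the first clustering pass and 2.14 without integration of the libraries. For Cpa1 the levels were 13.6 CPM (11.9 to 15.4) and 56.2 CPM (53.2 to 59.4), with a log2 ratio of 2.05 (1.85 to 2.25). Tle4 stood at 30.3 CPM (27.8 to 33.0) and 69.4 CPM (66.0 to 72.9), with a log2 ratio of 1.20 (1.05 to 1.34). Thus Pax8 was almost without transcript in Ctrl and at a low level in cKO, whereas Bdnf, Cpa1 and Tle4 were higher than an existing one. Among 5775 genes with at least 30 UMIs and 20 CPM in 1 library, 39 were at least 2-fold higher in the cKO library, a background of 0.675%, and 140 were at least 2-fold lower, 2.42%. Scaled by the median of ratios instead of total UMIs these were 47 and 104. Bdnf, Cpa1 and Tle4 belong to these 39 by the way they were chosen, and Pax8 did not reach 20 CPM. Well-counted genes had a median log2 ratio of −0.14, so relative to it each member's ratio is larger by that amount.

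**Figure D1:**
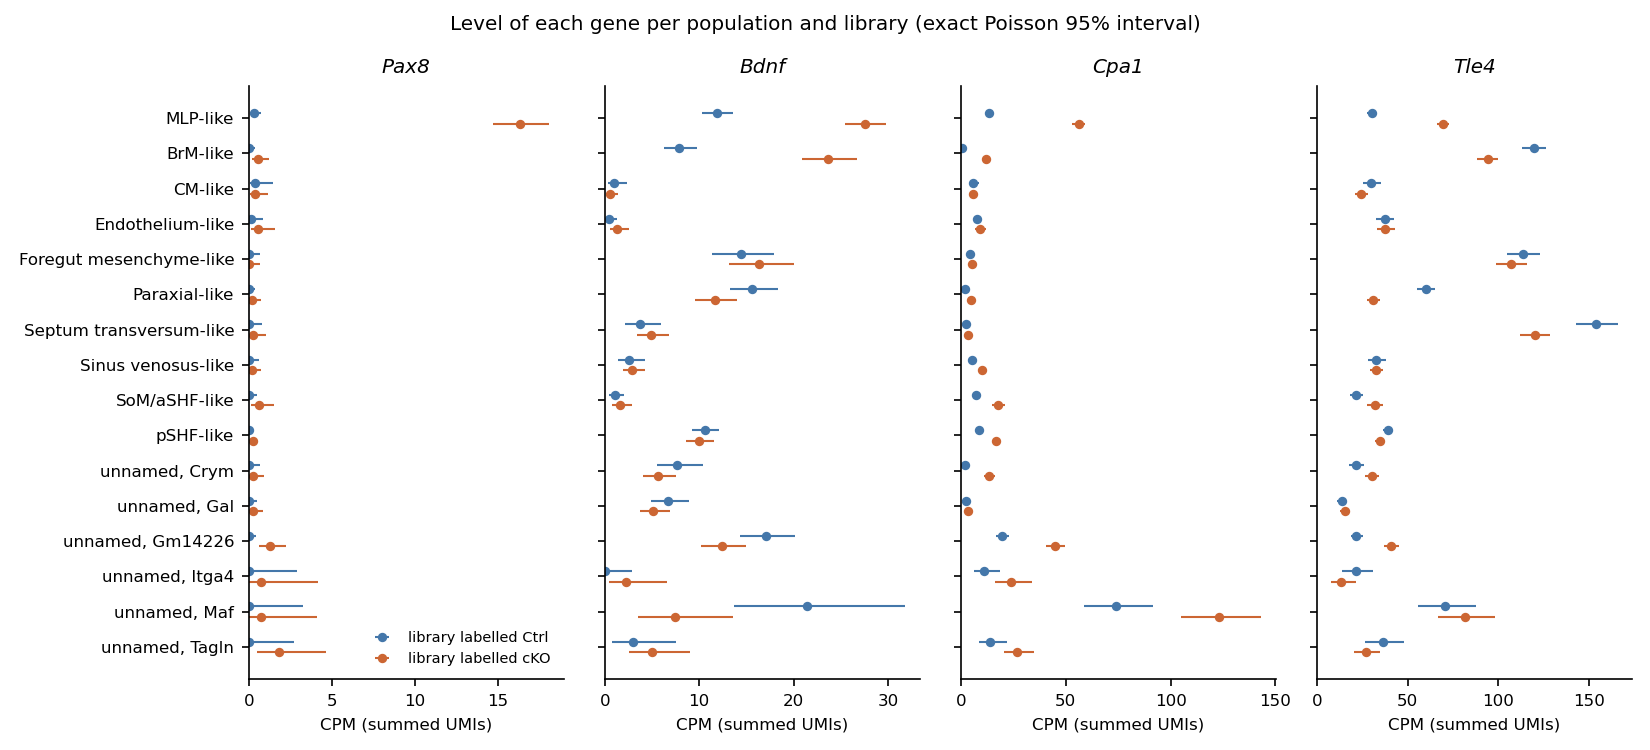
CPM of Pax8, Bdnf, Cpa1 and Tle4 (horizontal axes, linear, summed UMIs) in 16 populations with at least 50 cells per library, Ctrl in blue and cKO in orange, with exact Poisson 95% intervals. Pax8 is highest in MLP-like cells labelled cKO at 16.4 CPM, Bdnf is also higher in BrM-like cells at 23.7 CPM, Cpa1 is higher in many populations, and Tle4 is highest in septum transversum-like cells in both libraries.

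The same difference was seen in the number of cells that held a transcript. To set cells of unlike depth side by side each was thinned to 5000 UMIs, which left out 11 Ctrl and 7 cKO MLP-like cells. Pax8 was then found in 2 of 1018 Ctrl cells, 0.196% (0.0238 to 0.708, exact binomial 95% interval), and in 90 of 1367 cKO cells, 6.58% (5.33 to 8.03). Without thinning the shares were 0.486% and 15.9%. Cardiomyocyte-like (CM-like) cells, which should lack Pax8, gave 0 of 270 thinned cells in Ctrl, which allows up to 1.11%, and 2 of 463 in cKO, 0.432% (0.0524 to 1.55), at median depths of 16676 and 15032 UMIs before thinning. The interval of the Ctrl share in MLP-like cells overlapped those of CM-like cells, whereas that of the cKO share lay above them.

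Bdnf was found in 5.60% (4.27 to 7.19) of thinned Ctrl and 10.8% (9.23 to 12.6) of thinned cKO MLP-like cells. Cpa1 had the widest gap among the genes already expressed, from 5.01% (3.75 to 6.53) to 22.0% (19.8 to 24.3). For Tle4 the shares were 13.6% (11.5 to 15.8) and 28.7% (26.3 to 31.2). Unthinned, they were 12.8% and 24.5% for Bdnf, 14.2% and 42.6% for Cpa1, and 33.2% and 60.2% for Tle4. In CM-like cells the thinned shares were 0 of 270 and 0 of 463 cells for Bdnf, which allows up to 1.11% and 0.648%, and 1.85% and 1.73% for Cpa1. Tle4 was found there in 13.3% and 12.1% of cells, since it is broadly expressed.

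**Figure D2:**
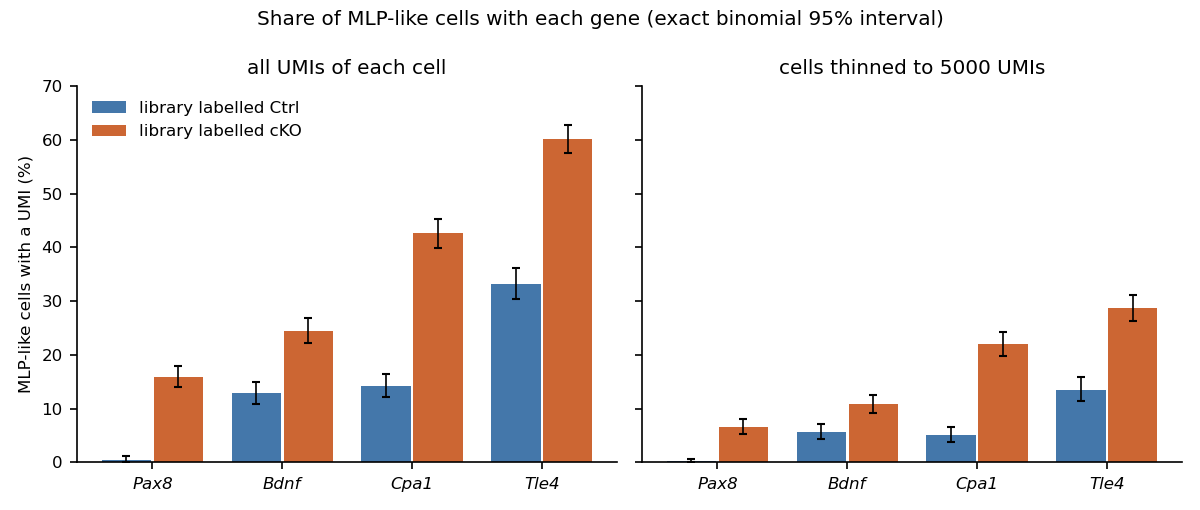
Percent of MLP-like cells with a UMI of each gene, with all UMIs (left) and after thinning each cell to 5000 UMIs (right), bars starting at 0 with exact binomial 95% intervals. In both panels all 4 bars of the library labelled cKO are above those of the library labelled Ctrl, and the Pax8 bar of Ctrl is close to 0.

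The transcripts per positive cell were few. Among the 218 Pax8-positive MLP-like cells labelled cKO, 128 held 1 Pax8 UMI, and no cell held more than 7. At least 2 UMIs were held by 41.3% of the Pax8-positive, 43.9% of the Bdnf-positive, 51.5% of the Cpa1-positive and 49.3% of the Tle4-positive cells of this library. In the Ctrl library the shares were 34.8% for Bdnf, 37.0% for Cpa1 and 34.8% for Tle4. Hence more cells held Bdnf, Cpa1 and Tle4 and those that did held more of it, and shares this low depend on depth.

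Pax8-positive cells lay mostly among the MLP-like cells. In the cKO library, MLP-like cells held 90 of 103 Pax8-positive cells after thinning, 87.4% (79.4 to 93.1), but made up 15.4% of all cells. They held 88.8% of the 420 Pax8 UMIs of the library. The remaining UMIs were spread thinly, with 11 in the unnamed cluster led by Gm14226, 6 in BrM-like cells and 4 or fewer in every other population. In Ctrl, 13 of 16 populations held no Pax8 UMI, against 1 of 16 in cKO. Over the other 15 populations together Pax8 had 3 UMIs in Ctrl and 47 in cKO, or 0.0302 and 0.428 CPM, at a log2 ratio of 3.83 (2.19 to 6.16). CM-like cells, which should lack Pax8, were at 0.403 CPM (0.0488 to 1.46) and 0.395 CPM (0.0815 to 1.15). These levels rest on 2 and 3 UMIs, too few to say how much of the difference over the other populations is background. In BrM-like cells and in the cluster led by Gm14226, which had no Pax8 UMI in Ctrl, the interval of the ratio also lay above 0. In cells like those of the posterior second heart field (pSHF-like), Pax8 was found in 0 of 1110 thinned Ctrl and 0 of 1157 thinned cKO cells, which allows up to 0.270% and 0.259%.

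Within the MLP-like cells all 3 clusters contributed. The share of Pax8-positive cells labelled cKO after thinning was 3.55% (2.33 to 5.15) in cluster 0, 8.74% (6.06 to 12.1) in cluster 10 and 11.9% (8.31 to 16.4) in cluster 15. The level followed the same order, at 10.2, 24.1 and 29.4 CPM. Bdnf had log2 ratios of 0.51 (0.23 to 0.80), 2.50 (1.93 to 3.105) and 2.25 (1.56 to 3.02) in clusters 0, 10 and 15. Those of Cpa1 were 1.61, 2.86 and 2.96 and those of Tle4 0.85, 1.80 and 1.89. For each of Bdnf, Cpa1 and Tle4 the interval of cluster 0 lay below those of clusters 10 and 15, whose intervals overlap.

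Cells of either sex showed the higher levels, although sex and embryo cannot be told apart here. In MLP-like cells with Xist and no Y-linked UMI, Pax8 was at 0.106 CPM in Ctrl and 14.7 CPM in cKO, and in cells with Y-linked UMIs only it was at 0.422 and 13.8 CPM. Cpa1 and Tle4 had log2 ratios of 2.02 and 1.34 in the former and of 2.18 and 0.97 in the latter. Bdnf differed more, with 1.58 (1.26 to 1.91) in Xist-only cells and 0.84 (0.46 to 1.21) in Y-linked-only cells.

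Outside the MLP-like cells the 4 genes did not differ alike. Bdnf was higher in the BrM-like cells labelled cKO as well, at 7.86 CPM (6.23 to 9.78) in Ctrl and 23.7 CPM (20.8 to 26.7) in cKO, at a log2 ratio of 1.59 (1.22 to 1.97). In these cells 1.15% of 5720 measured genes were at least 2-fold higher in cKO, and of the members only Bdnf and Tle4 were measured there. In cKO the level of Bdnf in BrM-like cells overlapped that in MLP-like cells, and these were the highest of 16 populations. In Ctrl its highest level was in the unnamed cluster led by Maf and Pid1, at 21.4 CPM (13.7 to 31.8) from 24 UMIs, where cKO had 7.41 CPM (3.55 to 13.6) from 10 UMIs. That Ctrl interval overlaps those of the cluster led by Gm14226, paraxial-like and foregut mesenchyme-like cells. Paraxial-like cells had 15.6 CPM of Bdnf in Ctrl and 11.7 CPM in cKO, at a log2 ratio of −0.42 (−0.79 to −0.06). Over the other 15 populations together Bdnf was at 8.30 and 8.52 CPM, with a log2 ratio of 0.04 (−0.10 to 0.17).

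Cpa1, by contrast, was higher in most of the library labelled cKO. Its log2 ratio was above 0 in 15 of 16 populations, with an interval above 0 in 11, and at least 2-fold in 7, and CM-like cells were the exception at −0.09 (−0.80 to 0.63). The other 15 populations together had 7.23 CPM in Ctrl and 14.7 CPM in cKO, with a log2 ratio of 1.03 (0.90 to 1.15), against 2.05 in MLP-like cells. The ratio was largest in BrM-like cells, at 4.11 (3.03 to 5.45), where 7 and 128 UMIs were counted. Its level was highest in neither of these but in the unnamed cluster led by Maf and Pid1, at 73.9 CPM (58.8 to 91.6) and 123 CPM (105 to 143). The name of that cluster leaves out the 4 genes, and Cpa1, although not used for clustering, was its first gene by fold. Its median depth was 63.0% of that of all kept cells. In cKO the MLP-like cells came next with 56.2 CPM, then the cluster led by Gm14226 with 45.0 CPM (40.6 to 49.7). In Ctrl the same cluster, the unnamed cluster led by Tagln and MLP-like cells followed at 19.5, 14.0 and 13.6 CPM, with overlapping intervals between neighbours.

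Tle4 was higher in cKO in MLP-like cells and lower in several populations where it is abundant, with an interval above 0 in 4 of 16 populations and below 0 in 4. Septum transversum-like cells, with the highest level, had 154 CPM (143 to 166) in Ctrl and 120.0 CPM (112 to 128) in cKO. BrM-like cells had 119 CPM in Ctrl and 94.0 CPM in cKO, at a log2 ratio of −0.35 (−0.47 to −0.22). The lowest ratio was that of paraxial-like cells, with 59.9 and 31.0 CPM, at −0.95 (−1.16 to −0.74). The cluster led by Gm14226 differed the other way, with 21.7 and 40.9 CPM, at 0.91 (0.65 to 1.18). Across the other 15 populations together Tle4 was at 52.4 and 47.4 CPM, with a log2 ratio of −0.14 (−0.20 to −0.09). In cKO the MLP-like level of 69.4 CPM was still below that of septum transversum-like, foregut mesenchyme-like and BrM-like cells.

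Cells that held several of the genes were more frequent in cKO, which follows in part from the single-gene shares. With all UMIs, 0 of 1029 MLP-like cells labelled Ctrl held all 4 genes, which allows up to 0.292%, whereas 49 of 1374 labelled cKO did, 3.57% (2.65 to 4.69). The product of the 4 single-gene shares was 0.00294% in Ctrl and 0.997% in cKO, where cells also differ in depth. In Ctrl 100 cells held 2 of the genes and 19 held 3, against 382 and 166 cells in cKO. After thinning, 78.2% of Ctrl and 48.4% of cKO cells held none of the 4. All 4 were then held by 0 of 1018 Ctrl and 2 of 1367 cKO cells, 0.146% (0.0177 to 0.527) in cKO.

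**Figure D3:**
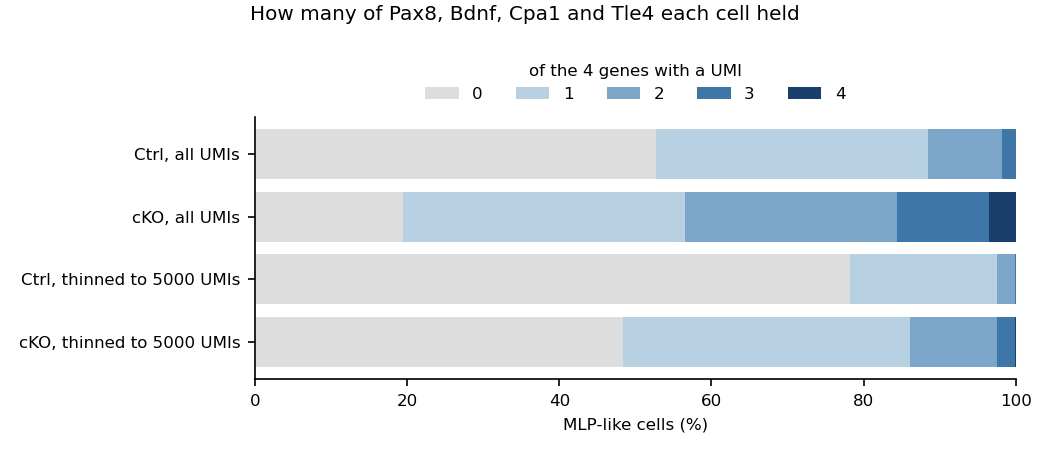
Percent of MLP-like cells (horizontal axis) by how many of Pax8, Bdnf, Cpa1 and Tle4 had a UMI, from 0 (grey) to 4 (dark blue), for each library with all UMIs and after thinning to 5000 UMIs. With all UMIs the grey part shrinks from 52.7% in Ctrl to 19.5% in cKO, and only cKO has a visible part for all 4 genes.

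Of the other 3 genes, Bdnf had the widest gap in share between Pax8-positive and Pax8-negative cells. Among thinned MLP-like cells labelled cKO, Bdnf was in 24 of 90 Pax8-positive cells, 26.7% (17.9 to 37.0), and in 124 of 1277 Pax8-negative cells, 9.71% (8.14 to 11.5). Cpa1 was in 25.6% (16.9 to 35.8) and 21.8% (19.5 to 24.1), and Tle4 in 31.1% (21.8 to 41.7) and 28.5% (26.0 to 31.1). The intervals were thus apart for Bdnf and overlapped for Cpa1 and Tle4. At 10000 UMIs per cell they were apart for all 3, with Bdnf in 44.1% and 16.9%, Cpa1 in 43.5% and 31.2% and Tle4 in 58.4% and 45.4%. With all UMIs, the shares in Pax8-positive and Pax8-negative cells were 50% and 19.7% for Bdnf, 56.0% and 40.1% for Cpa1, and 75.7% and 57.3% for Tle4, at median depths of 15190.5 and 15380 UMIs.

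In levels, too, Bdnf had the highest ratio of the 3. It was at 65.6 CPM (57.7 to 74.4) in the 218 Pax8-positive cells and at 20.2 CPM (18.2 to 22.3) in the 1156 Pax8-negative cells, with a log2 ratio of 1.70 (1.47 to 1.94). It was higher within each of clusters 0, 10 and 15, at 1.85, 1.08 and 1.69. Cpa1 was at 74.5 and 52.7 CPM, with a log2 ratio of 0.50 (0.30 to 0.69), and Tle4 at 93.6 and 64.6 CPM, 0.53 (0.36 to 0.71). The Cpa1 difference rested on Xist-only cells, with a ratio of 0.83 (0.55 to 1.10) against −0.03 (−0.42 to 0.34) in Y-linked-only cells, and it was 0.17 (−0.15 to 0.48) for cells with at least 2 Pax8 UMIs. Pax8-negative cells labelled cKO, at 52.7 CPM of Cpa1 and 64.6 CPM of Tle4, were still well above the Ctrl MLP-like levels of 13.6 and 30.3 CPM. For Bdnf these cells were at 20.2 CPM against 11.9 CPM in Ctrl. Pax8-negative means only that no Pax8 UMI was counted. As 128 of the 218 Pax8-positive cells held 1 UMI, the Pax8-negative cells can include some with undetected Pax8. Tbx1 was higher in Pax8-positive cells, at 156 and 99.9 CPM, but not within cluster 15, where it was at 119.6 and 129.8 CPM.

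**Figure D4:**
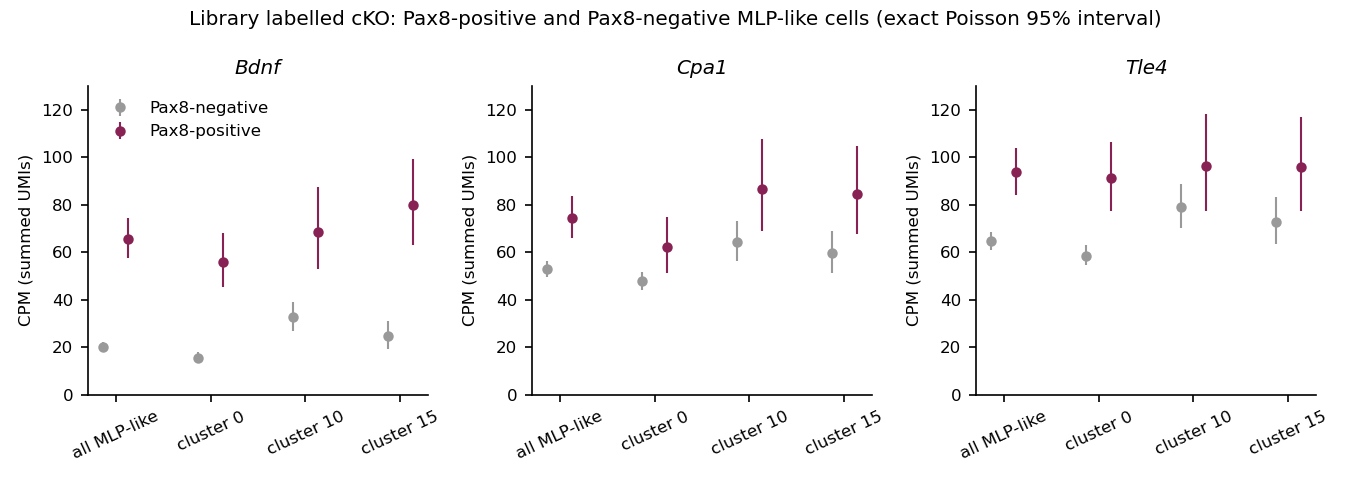
CPM of Bdnf, Cpa1 and Tle4 (vertical axes, from 0) in Pax8-positive (purple) and Pax8-negative (grey) MLP-like cells of the library labelled cKO, for all such cells and for clusters 0, 10 and 15, with exact Poisson 95% intervals. The Bdnf intervals are apart in all 4 places, while those of Cpa1 overlap within each cluster and those of Tle4 within clusters 10 and 15.

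The question of what else Pax8-positive cells express was taken over all genes. Leaving out the members, 14 of 5294 measured genes were at least 2-fold higher in Pax8-positive than in Pax8-negative MLP-like cells labelled cKO, 0.264%, and 47 were at least 2-fold lower, 0.888%. These counts depended on the setting. With Pax8 called after thinning 29 were higher, and as a mean of ratios within clusters 29 were lower. The genes ranked highest by the bound of the interval nearest 0 were Ctxn3, which encodes a small membrane protein, Galnt3, an enzyme that starts O-linked glycosylation, and Sst, the hormone somatostatin. Ctxn3 was at 21.8 and 1.99 CPM, with a log2 ratio of 3.45 (2.88 to 4.05), with a UMI in 45 of 218 Pax8-positive and 26 of 1156 Pax8-negative cells. Galnt3 was at 35.2 and 5.66 CPM, 2.64 (2.26 to 3.02). Sst was at 28.5 and 4.71 CPM, but 48.1% of its UMIs in Pax8-positive cells came from 1 cell, and its log2 ratio fell from 2.60 to 1.66 without that cell. By sex the Sst ratio was 0.67 in Xist-only and 5.22 in Y-linked-only cells.

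The calmodulin-binding gene Pcp4 was the most abundant of these genes, at 290.2 CPM in Pax8-positive and 61.8 CPM in Pax8-negative cells, with a log2 ratio of 2.23 (2.11 to 2.35). A UMI of Pcp4 was held by 143 of 218 and 316 of 1156 cells. Sall1, a zinc-finger transcription factor gene of kidney development, was at 99.5 and 42.8 CPM, at 1.22 (1.04 to 1.40). Shisa2, which restrains Wnt and FGF receptors, Otor, a secreted protein of the inner ear, Aard, the cytochrome gene Cyp1b1 and Fst, which encodes the activin-binding follistatin, completed the 10 highest, at log2 ratios between 1.16 and 1.37. All 10 genes had a ratio above 0 within each of the 3 clusters.

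The gene with the lowest ratio was of another kind. Aldh1a2, the enzyme that makes retinoic acid, was at 1.88 CPM in Pax8-positive and 35.8 CPM in Pax8-negative cells, with a log2 ratio of −4.25 (−5.57 to −3.20), with a UMI in 4 of 218 and 236 of 1156 cells. Hoxb4, a Hox gene of the posterior pharyngeal region and trunk, was at 8.61 and 35.1 CPM, at −2.03 (−2.59 to −1.52). The forkhead gene Foxd1 was at 9.68 and 61.1 CPM and Alx1, a homeobox gene of facial mesenchyme, at 6.19 and 40.0 CPM, with ratios of −2.66 and −2.69. Among the 10 lowest were also the collagens Col3a1 and Col9a1, the protease gene Adamts1, the ephrin receptor gene Epha7, Runx1t1 and Wnt2, at log2 ratios between −2.57 and −1.98. Wnt2 was lower in cluster 0 at −2.22 but not in clusters 10 and 15, at 0.25 and −0.00.

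Some of these genes were at like levels in both libraries and others were not. Ctxn3 was at 5.88 CPM in MLP-like cells labelled Ctrl and 5.22 CPM in those labelled cKO, Sall1 at 50.7 and 52.0 CPM and Pcp4 at 86.7 and 99.03 CPM. By contrast, Galnt3 was at 1.40 and 10.5 CPM, Otor at 2.02 and 25.9 CPM, Cyp1b1 at 1.57 and 9.82 CPM, and Sst at 0.112 and 8.59 CPM, from 2 UMIs in Ctrl. Aldh1a2 and Hoxb4 were lower in cKO, at 72.9 and 30.2 CPM and at 76.6 and 30.8 CPM, whereas Foxd1 and Alx1 were at 53.0 and 52.7 CPM and at 36.1 and 34.5 CPM. Cells with Ctxn3, Pcp4 or Sall1 were thus present in both libraries. The next genes were taken after their values had been seen. Pcp4 and Ctxn3 stood out in Pax8-positive cells labelled cKO, so their cKO shares restate that choice, and with 5 Pax8-positive cells in all the Ctrl counts could hardly be other than low. With all UMIs Pax8 was in 1 of 318 Pcp4-positive MLP-like cells labelled Ctrl, 0.314% (0.00796 to 1.74), and in 143 of 459 labelled cKO, 31.2% (26.9 to 35.6). Of Ctxn3-positive cells 0 of 67 in Ctrl, which allows up to 4.48%, and 45 of 71 in cKO, 63.4% (51.1 to 74.5), held Pax8. After thinning the counts were 0 of 210 and 45 of 280 for Pcp4 and 0 of 34 and 6 of 27 for Ctxn3. Aldh1a2-positive cells labelled cKO held Pax8 in 4 of 240 cases, 1.67% (0.456 to 4.21), and after thinning in 0 of 131, which allows up to 2.29%.

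**Figure D5:**
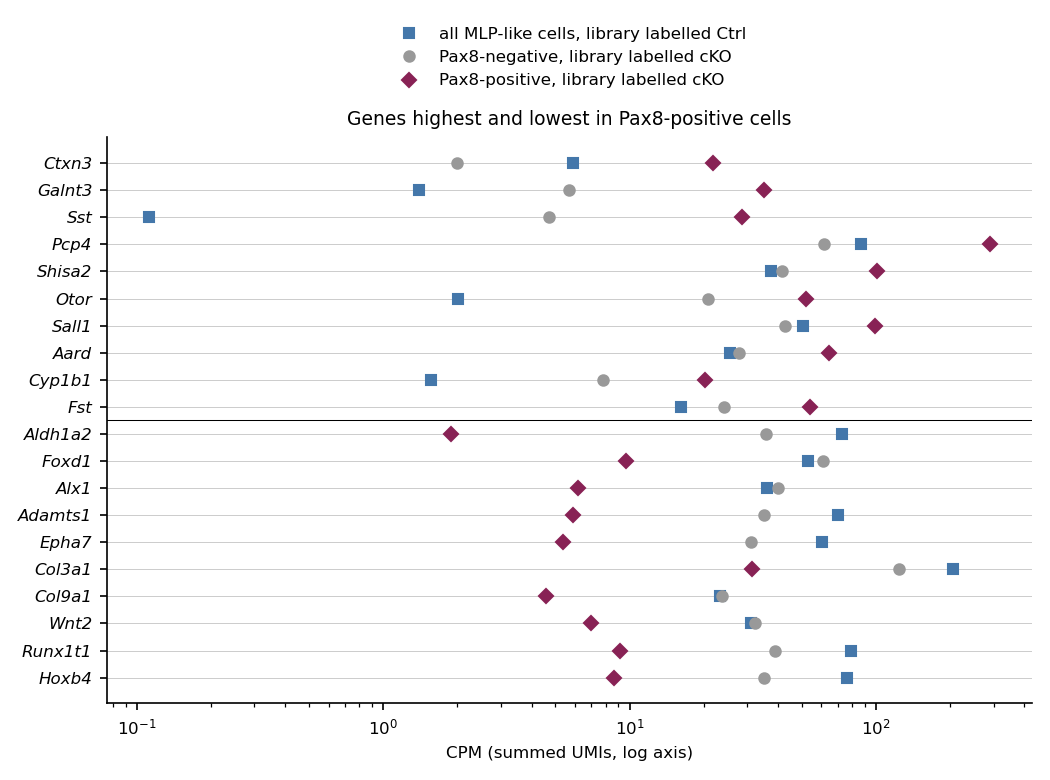
CPM (horizontal log axis) of the 10 genes highest and the 10 lowest in Pax8-positive cells, above and below the black line, in Pax8-positive (purple) and Pax8-negative (grey) MLP-like cells labelled cKO and in all MLP-like cells labelled Ctrl (blue). Ctrl lies near the grey points for Shisa2, Sall1, Aard, Foxd1, Alx1, Col9a1 and Wnt2, below them for Galnt3, Sst, Otor and Cyp1b1, and above them for Ctxn3, Aldh1a2 and Hoxb4, among others.

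Lists of genes from the tissues in which the members are best known had few measured members. Pax2 and Pax5, the closest relatives of Pax8, had 0 UMIs in MLP-like cells of either library, as did the kidney gene Cdh16. Other nephric markers were present at low levels below the minimum for measured genes, with the transcription factor gene Gata3 at 3.53 CPM in Ctrl and 11.7 CPM in cKO, at a log2 ratio of 1.73 (1.33 to 2.15), Lhx1 at 1.40 and 3.24 CPM, and the receptor gene Ret at 0.560 and 1.62 CPM. For marker shares Pax8 was called on all UMIs and only the marker after thinning. Gata3 was then in 6.42% (3.56 to 10.5) of Pax8-positive and 5.74% (4.47 to 7.25) of Pax8-negative cells. Of the 16 listed Pax and nephric genes 3 were measured in the comparison of Pax8-positive with Pax8-negative cells, and 1, Sall1, was at least 2-fold higher, beside 0.264% of all measured genes. The median of the 3 was 0.37, against −0.03 over all measured genes. Of the thyroid and pharyngeal endoderm list, Nkx2-1 and Foxe1 had 0 UMIs and Tg 1 in each library. Its measured members, the keratins Krt8 and Krt18, were lower in Pax8-positive cells, at −0.96 (−1.43 to −0.51) and −1.41 (−1.82 to −1.03), the latter at least 2-fold, beside 0.888% of all. Between the libraries they differed the other way, with Krt8 at 12.4 CPM in Ctrl and 21.7 CPM in cKO, a log2 ratio of 0.80 (0.57 to 1.04), and Krt18 at 28.3 and 37.9 CPM, 0.42 (0.26 to 0.58), neither of them 2-fold. With the marker thinned and Pax8 called on all UMIs, Epcam was in 6 of 218 Pax8-positive and 10 of 1149 Pax8-negative cells. These shares were 2.75% (1.02 to 5.89) and 0.870% (0.418 to 1.59). Cdh1 and Foxa2, further endoderm markers, were in 0 of either. The neural crest markers Sox10 and Foxd3 were in 0 of 218 Pax8-positive cells, which allows up to 1.38%.

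The placode list held genes that MLPs also use. Eya1, a transcriptional coactivator gene of placodes and pharyngeal mesoderm, was at 83.6 CPM in Pax8-positive and 44.3 CPM in Pax8-negative cells, at 0.92 (0.72 to 1.11), and at 60.5 and 50.7 CPM in Ctrl and cKO MLP-like cells. All 4 measured genes of the list had higher levels in Pax8-positive cells, with an interval above 0 for each, as had 395 of all 5294 measured genes, and 0 of them at least 2-fold, beside 0.264% of all. The list's median was 0.74 against −0.03. The otic markers Oc90 and Pax2 were in 0 of 218 Pax8-positive cells.

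Of the neurotrophin list no gene reached 20 CPM in MLP-like cells between the libraries. Ntf3, which encodes neurotrophin 3, was at 10.6 and 19.8 CPM, at 0.91 (0.66 to 1.16), and Ngfr at 1.34 and 3.51 CPM, at 1.38 (0.71 to 2.11), from 24 and 80 UMIs. The TrkB gene Ntrk2 was at 8.40 and 8.81 CPM, at 0.07 (−0.24 to 0.38). In Pax8-positive cells Ntf3 was at 29.9 CPM against 17.9 CPM in Pax8-negative ones, at 0.74 (0.42 to 1.05). The list of neural and neural crest genes had no measured member in either comparison.

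Among 22 carboxypeptidase and pancreas genes, 3 were measured and none was 2-fold changed, beside 0.675% higher and 2.42% lower of all measured genes, so that 3 genes show little here, with a median log2 ratio of −0.14 between the libraries against −0.08 over all measured genes. The carboxypeptidase genes Cpe, Cpd and Cpxm1 were at −0.14, −0.50 and −0.14. The pancreas transcription factor genes Pdx1 and Ptf1a had 0 UMIs in both libraries.

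In the Groucho list Tle1 and Tle3 differed in the direction opposite to Tle4. Tle1 was at 34.9 CPM in Ctrl and 17.0 CPM in cKO, at −1.04 (−1.22 to −0.85), and Tle3 at 29.4 and 16.0 CPM, at −0.87 (−1.07 to −0.68). Scaled by the median of ratios these were −0.89 and −0.73, whereas Aes, at −0.14, changed sign to 0.01. Tle2 and Tle6 were under 2 CPM in both libraries and not measured, with ratios of 0.45 (−0.33 to 1.25) and 1.04 (0.18 to 1.97). Of 8 measured genes of the list, 1, Tle1, was at least 2-fold lower and 0 at least 2-fold higher, with a median of −0.53 against −0.08 over all measured genes, of which 2.42% were at least 2-fold lower.

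Of the cardiopharyngeal list, drawn with earlier results of these data known, most genes were lower in cKO. Its counts are therefore a description and not a test. Of 23 measured genes 13 were at least 2-fold lower in MLP-like cells labelled cKO and 1 higher, with a median of −1.32 against −0.08 over all measured genes, where 2.42% were lower and 0.675% higher. The lowest ratios were those of the receptor gene Aplnr, with 39.7 and 0.351 CPM, and of the growth factor gene Fgf10, with 33.5 and 2.19 CPM, followed by Nrg1, Fgf8 and Wnt5a at log2 ratios between −2.45 and −2.22. Meox1, a homeobox gene of somites and pharyngeal mesoderm, was higher at 77.2 and 173 CPM. Comparing Pax8-positive with Pax8-negative cells, 5 of 17 measured genes were at least 2-fold lower, namely Mpped2, Hand2, Sox9, Mef2c and Gata6, at −1.41 to −1.12, and 0 were 2-fold higher, beside 0.888% and 0.264% of all measured genes. The list's median was 0.10 against −0.03. Of the MLP markers, Six2 was at 39.5 and 20.8 CPM and Isl1 at 62.4 and 58.1 CPM, whereas Mpped2 was one of the 5 lower genes. Six2 is also a leading gene of cluster 15, which held 30.3% of Pax8-positive and 17.7% of Pax8-negative cells.

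The genes whose pattern over populations was most like that of each member were found from the correlation of log2(CPM + 5) over 33 sums of 1 population in 1 library, among 7832 genes. The sums share libraries, so the correlations are descriptions. Pax8 was at 16.4 CPM in MLP-like cells labelled cKO, the value it was chosen by, and at 1.83 CPM or less in every other sum, so its correlations rest almost wholly on that 1 sum. Pax8 was followed most closely by Otor at 0.88, then by Frzb at 0.49, Cpa1 at 0.46, Psma5 at 0.42 and Irx1 at 0.42. Cpa1 also had Otor and Frzb first, at 0.69 and 0.67, then Dpep1, Psmd10 and Plat. Bdnf was most like Asb13, Nmral1, Edn3, Mir17hg and Rgma, from 0.80 to 0.77, and Tle4 most like Pde5a, Hlx, Chst15, Epha4 and Cxxc4, from 0.80 to 0.69. Among the members Cpa1 and Tle4 were least alike, at 0.06.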

How the data were processed

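The deposited values are raw UMI counts by gene and barcode. Cell Ranger 3.1.0 and mm10 are the tool and build that the authors name in the submitters' processing notes, and the whole-number values carry no normalization. The matrices held 7418 and 10281 barcodes with 132017331 and 162874391 UMIs. Groups follow the genotypes in the labels, with 1 library each, so p-values were not computed. The 4 genes and all gene lists were chosen with earlier results of these data known.

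Cells with at least 1000 genes and at most 10% mitochondrial UMIs were kept. Scrublet (scanpy 1.11.5) called 0% and 8.53% of cells automatically, so the highest-scoring cells were removed at 0.8% per 1000 cells, 416 and 804. Clustering used Seurat 5.3.0 with reciprocal PCA integration, 2000 variable genes and resolution 1, without the 4 genes, Tbx1 or 1520 genes that differed 2-fold between the libraries in a first pass. Clusters were named -like from marker lists, by thresholds set after the data had been seen: 3 or more markers making up 50% of a list, and 1 or more in the 10 leading genes, where no rival list may have more. A cluster led by the smooth muscle gene Tagln that met them was left unnamed.

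Summed UMIs gave CPM with exact Poisson and log2 ratios with exact conditional 95% intervals. Shares have Clopper-Pearson intervals, and 0 cells allow up to 3 of the total. The ratio and its interval were tested on simulated data. Genes were measured with at least 30 UMIs in both groups together and 20 CPM in 1. Named genes were the members, Tbx1, list genes at least 2-fold changed with an interval off 0 (up to 6 each way) or defining genes near 0, the 10 highest and 10 lowest in Pax8-positive cells, and the 5 most like each member. Other genes are named for comparison, after their values were seen, and a few genes of the lists are not reported here. Cells differing in Pax8 were set apart by at least 1 UMI. Sequences came from RefSeq promoter windows of GRCm38.p6, of which all 4 genes had at least 1. Alternatives were other clusterings, doublets kept, 1 sex, other depths, filters and scalings.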

Additional observations from a re-analysis of the deposited data

Results flagged for a closer look

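Bdnf and Tle4 had log2 ratios of cKO over Ctrl on opposite sides of 0 in different populations, each with a counting interval that leaves out 0. Bdnf was at 1.59 in BrM-like cells and at −1.53 in the unnamed cluster led by Maf and Pid1, which had 107 and 142 cells. Tle4 was at 1.20 in MLP-like cells and at −0.95 in paraxial-like cells. With 1 library per group the difference between populations was not tested.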

How the results depend on the processing

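Over 43 results and 188 alternative values, 120 stayed within the counting interval of the reported value, or within 1.5 times of a count, 66 moved beyond it and 2 reversed. Every alternative kept the log2 ratio of Pax8, Bdnf, Cpa1 and Tle4 in MLP-like cells above 0.

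Where the cells called MLP-like changed, the log2 ratio of Bdnf, 1.22, became 1.47 with presumed doublets kept, 1.640 at resolution 0.6, 2.26 in the first clustering pass and 2.14 without integration, and that of Cpa1, 2.05, became 2.43, 2.46 and, without integration, 2.44. For Tle4 it was 1.59 in the first pass and 1.36 without integration, against 1.20. Median-of-ratios scaling gave Tle4 1.34. In Xist-only cells Pax8 was at 7.11 and Bdnf at 1.58, and in Y-linked-only cells Bdnf was at 0.84 and Tle4 at 0.97. The share of Pax8-positive MLP-like cells labelled cKO, 6.58%, was 4.85% with doublets kept, 5.21% at resolution 0.6, 8.49% in the first pass, 15.9% without thinning and 13.2% at 10000 UMIs, and the Ctrl share was 0% in Xist-only cells. MLP-like cells held 79.3% of Pax8-positive cells with doublets kept.

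The gap in positive share between Pax8-positive and Pax8-negative cells, 17.0 points for Bdnf, 3.79 for Cpa1 and 2.61 for Tle4, was 30.3, 15.9 and 18.42 points without thinning, and 29.1 for Bdnf and 15.02 for Tle4 in Y-linked-only cells. Without the CPM minimum, 129 genes were 2-fold higher and 404 lower in Pax8-positive cells, with low counts admitted, and 196 were higher in cKO. With Pax8 called after thinning 29 were higher, and as a mean of ratios within clusters 29 were lower; the cause was not tested. Chosen after seeing the data, the ratio between Pax8-positive and Pax8-negative cells reversed for Cpa1 in Y-linked-only cells, at −0.034, and for Tbx1 in cluster 15, at −0.12. No paired analysis was possible because each group has 1 library, and no replicate could be left out.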
